A study of Mus musculus with 8 samples.

Results

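The tumor necrosis factor (TNF) superfamily is a set of cytokines, most of them anchored in the cell membrane as trimers, and the receptors that bind them. The genes were taken by name: every gene whose symbol starts with Tnfsf or Tnfrsf and a digit, together with Tnf, Lta, Ltb, Ltbr, Fas, Fasl and Eda2r. Of 55679 genes in the table, 39 met this rule, of which 15 encode ligands, 23 encode receptors and 1, Tnfsf13os, is an antisense RNA. RNA-seq of the left ventricle was compared between 4 samples from male wild-type (WT) C57BL/6J mice that received saline for 7 days, the control group, and 4 from mice of the same sex, genotype and strain that received angiotensin II (ANG II) at 1500 ng/kg/min for 7 days. Both groups were infused through pumps under the skin, and ANG II, a peptide that constricts vessels and raises blood pressure, served to bring about hypertensive left ventricular hypertrophy (LVH). The hearts were flushed with saline, the whole ventricle with all its cell types was sequenced, and the age of the mice is not given in the sources used here. Expression is given as FPKM, fragments divided by transcript length and by how many fragments the library mapped, which is a level per length and lets genes be set beside each other.

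Binding of a trimeric ligand brings receptor chains together at the membrane. Receptors with a death domain recruit adaptors such as Tradd and Fadd, which can start caspases, whereas the other signalling receptors recruit TRAF proteins, which switch on NF-kappaB and stress kinases. Decoy receptors bind ligand without passing on a signal. In the heart the TNF receptors are known from cardiomyocytes, fibroblasts, endothelium and leukocytes, and many of the ligands come mainly from leukocytes.

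The libraries held 14455879 to 16564996 fragments, and the ligand gene Tnf, as an example of a low gene, rested on 18 fragments in all control libraries together. Ventricular cardiomyocyte markers summed to 46663 to 47677 FPKM in control and 34989 to 37597 in ANG II, the highest sum of any marker list, while the 7 intestinal epithelial markers summed to no more than 1.47 FPKM in any library; this list was read because the extraction label names another cell source. Mitochondrially encoded genes took 26.3 to 27.0% of fragments in control and 19.2 to 21.8% in ANG II. Calls required an adjusted p-value by limma (Benjamini-Hochberg over 19364 genes tested) below 0.05 together with a log2 fold change of FPKM + 1 beyond 0.5 in either direction. The median log2 fold change of all genes tested was 0.15 in favour of ANG II, and it was 0.00 after median-of-ratios scaling, an alternative that sets the libraries to 1 common median gene. The labels number the samples of a group without naming animals or batches, and the study describes its sequenced samples as biological replicates. P-values measure the spread between these samples.

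The first comparison asked whether the receptors and their ligands changed with ANG II. Most of the genes called were receptors, and so were most of the genes tested. Limma called 10 of 21 receptors and 2 of 11 ligands higher (14% of all genes tested). By voom on recovered fragments 11 of these receptors and 6 of these ligands were called higher (18.9%). Of the 33 genes that averaged 0.1 FPKM or more over the 8 libraries, 12 were called higher and 1, Tnfrsf19, was called lower, where 14% of all genes tested were called higher and 1.41% lower. The 10 receptors called higher were Tnfrsf1b, Tnfrsf13b, Tnfrsf12a, Tnfrsf1a, Tnfrsf11b, Tnfrsf23, Tnfrsf11a, Tnfrsf9, Ltbr and Eda2r, and the 2 ligands called higher were Ltb and Tnfsf13b. Among 21 receptors tested the median log2 fold change was 0.37 and among 11 ligands it was 0.29, against 0.15 over all genes, and a difference between receptors and ligands was not tested. The values of all ANG II libraries lay above those of all control libraries at 13 of the 33 genes (28.7% of all genes tested) and below them at 1 (5.06%). Tnfsf8, Tnfsf14, Tnfsf18 and Tnfrsf13c averaged under 0.1 FPKM in control and passed the filter only through their ANG II values. Tnfsf8, Tnfsf14 and Tnfsf18 are among the genes without overlap and among the ligands that voom called. The counts therefore describe the genes tested and not the whole family.

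After median-of-ratios scaling 9 of the 33 were called higher and 1 lower, where 8.63% and 4.16% of all genes were. The 3 that fell under the fold change threshold were Tnfsf13b, Ltbr and Eda2r, at log2 fold changes of 0.45, 0.33 and 0.36. The share of calls that were higher over all genes went from 90.8% to 67.5% with this scaling. By voom on recovered fragments 17 were called higher and 1 lower, where 18.9% and 2.01% of all genes were. The plot of log2 fold changes sets both scalings side by side.

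**Figure D1:**
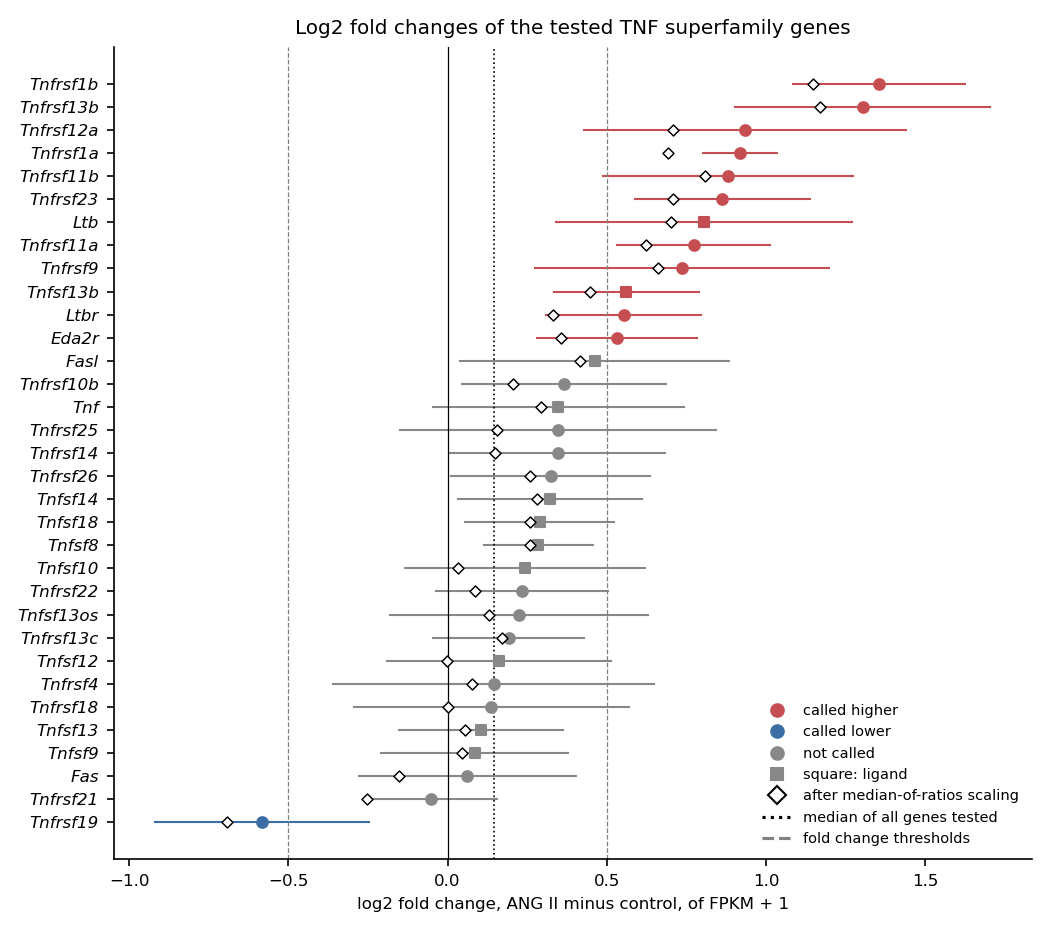
Log2 fold change of FPKM + 1 (x axis, ANG II minus control) of the 33 TNF superfamily genes tested, ordered by size, with 95% confidence intervals from limma as lines, receptors and the antisense RNA as circles, ligands as squares and the value after median-of-ratios scaling as open diamonds. Tnfrsf1b leads at 1.36, Tnfrsf19 is lowest at -0.58, and the dotted line marks the median of all genes tested at 0.15.

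The receptors made up most of the family's RNA. Summed over the 23 receptors, the level was 174 to 230 FPKM in control libraries against 329 to 382 FPKM with ANG II, and summed over the 15 ligands it was 10.4 to 19.7 FPKM in control libraries against 19.4 to 23.5 FPKM with ANG II. The receptor sums did not overlap between the groups and the ligand sums did, at their edges. In bulk tissue, a change in the number of cells of a type and a change in RNA per cell cannot be told apart, and this holds for every gene below.

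**Figure D2:**
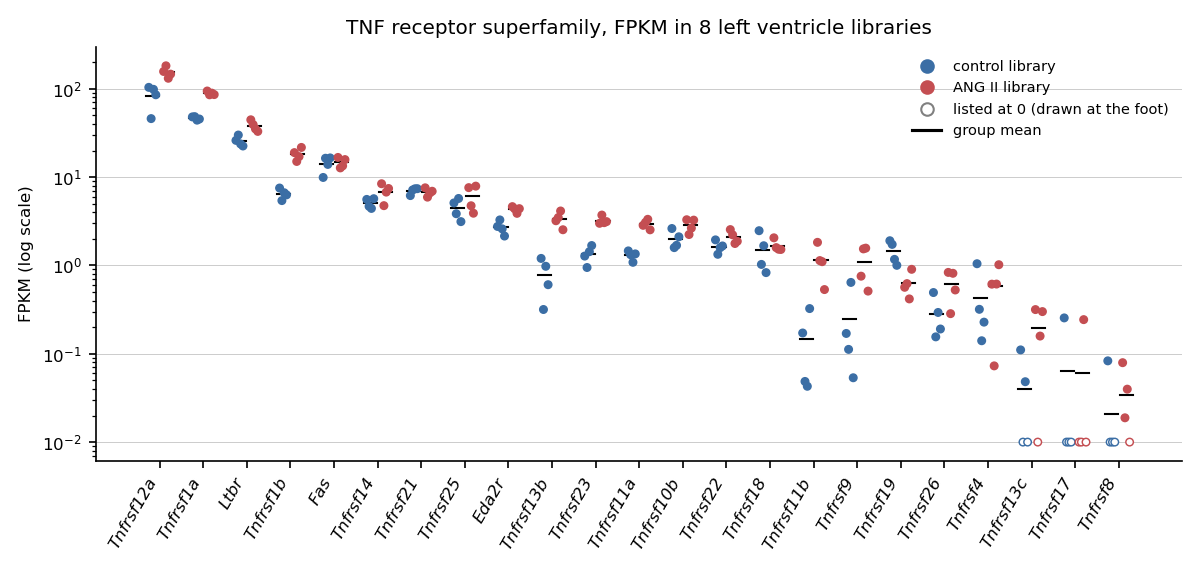
FPKM (y axis, log scale) of the 23 receptor genes in each of the 8 libraries, control in blue and ANG II in red, with group means as black bars and values listed at 0 as open circles at the foot. Tnfrsf12a and Tnfrsf1a stand highest in both groups, at means of 83.4 and 46.5 FPKM in control libraries against 154 and 88.7 FPKM with ANG II.

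Both receptors of TNF itself rose. Tnfrsf1a (chr6:125349362-125362484, plus strand, GRCm38), the death domain receptor that most tissue cells carry, stood at 48.0, 48.4, 44.1 and 45.5 FPKM in control replicates 1 to 4 and at 94.3, 85.4, 89.3 and 86.0 FPKM in ANG II replicates 1 to 4. The groups lay far apart and each was tight, and the log2 fold change was 0.92 (SE 0.052, limma with Benjamini-Hochberg adjustment, adjusted p = 4.7e-06), a ratio of means of 1.91. Tnfrsf1b (chr4:145213463-145246870, minus strand), which has no death domain, binds TRAF2-containing complexes and is prominent on leukocytes and endothelium, stood at 7.52, 5.42, 6.65 and 6.30 FPKM in control libraries against 18.9, 15.04, 17.1 and 21.7 FPKM with ANG II. On FPKM + 1 as deposited, its log2 fold change of 1.36 was the highest of the 33 genes (SE 0.12, limma with Benjamini-Hochberg adjustment, adjusted p = 4.59e-05). The ratio of means was 2.81. After median-of-ratios scaling Tnfrsf13b stood above it, at 1.17 against 1.15. With a pseudocount of 0.1 Tnfrsf11b (2.38) and Tnfrsf13b (2.08) stood above its 1.47, and by voom several low genes, led by Tnfsf8 (3.19), stood above its 1.48. The Tnfrsf1b groups lay far apart too, with every ANG II library above every control library. The 14 macrophage markers moved with it, 13 of them called higher (14% of all genes tested) and 12 after median-of-ratios scaling (8.63%), and their sum was 316 to 395 FPKM in control libraries against 718 to 998 FPKM with ANG II; the part of macrophages in the Tnfrsf1b values was not tested.

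Tnf, the ligand of both, was low and was not called. It stood at 0.357, 0.177, 0.195 and 0.0421 FPKM in control libraries against 0.851, 0.566, 0.0426 and 0.726 FPKM with ANG II, or 18 fragments in all control libraries and 53 in all ANG II libraries. One ANG II library, replicate 3, was as low as the lowest control library, and the log2 fold change was 0.35 (95% interval -0.05 to 0.74, limma with Benjamini-Hochberg adjustment, adjusted p = 0.161). Without that library it was 0.53 (limma with Benjamini-Hochberg adjustment, adjusted p = 0.0106). By voom with all libraries Tnf was not called either (1.17, Benjamini-Hochberg adjusted p = 0.322).

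Tnfrsf12a (chr17:23675445-23677468, minus strand), the receptor of the cytokine TWEAK and a gene of injured tissue, had the highest level of the family. It was at 104, 46.0, 98.5 and 85.5 FPKM in control libraries against 157, 182, 132 and 147 FPKM with ANG II. Control replicate 2 stood low, the groups did not overlap, and the log2 fold change was 0.93 (SE 0.23, limma with Benjamini-Hochberg adjustment, adjusted p = 0.0104). Tnfsf12, which encodes TWEAK, was at 1.86 to 3.45 FPKM in control libraries against 2.34 to 3.52 FPKM with ANG II, with a log2 fold change of 0.16 (95% interval -0.19 to 0.51) that turned to -0.0029 after median-of-ratios scaling. Of the 50-base words of Tnfsf12 transcripts, 46.8% also occur in the read-through gene Tnfsfm13, so its level is uncertain.

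Ltbr, the lymphotoxin beta receptor, lies 35.476 kb from Tnfrsf1a on chromosome 6 and was also higher. Its values were 26.1, 29.9, 23.7 and 22.5 FPKM in control libraries against 44.5, 39.4, 35.1 and 32.9 FPKM with ANG II, without overlap and with a log2 fold change of 0.55 (SE 0.11, limma with Benjamini-Hochberg adjustment, adjusted p = 0.00362). The call was close to the fold change threshold, since the log2 fold change was 0.497 without control replicate 4 and 0.475 without ANG II replicate 1. Its ligand gene Ltb, a membrane partner of lymphotoxin alpha, rose from 1.13, 0.295, 0.468 and 0.169 FPKM in control to 1.59, 0.972, 1.65 and 2.26 FPKM in ANG II. These groups overlapped, because control replicate 1 exceeded ANG II replicate 2, and the log2 fold change was 0.81 (SE 0.21, limma with Benjamini-Hochberg adjustment, adjusted p = 0.0142). Control replicate 1 was also the control library with the highest sum of T cell markers, at 12.9 FPKM. The other control libraries had 3.55 to 6.34 FPKM and ANG II 10.998 to 19.8 FPKM. Its sums of macrophage, NK cell, B cell, neutrophil and erythroid markers were likewise the highest of control, at 395, 3.47, 6.42, 6.77 and 487 FPKM. The part of these cells in the Ltb values was not tested. Lta, the partner of Ltb, was listed at 0 in 3 control and 2 ANG II libraries and rested on 1 fragment in control and 3 in ANG II, too few to compare.

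The stretches of RefSeq sequence (GRCm38.p6) that precede the start sites of these 4 well-measured receptors are shown because they are the most abundant receptors that rose together. Each covers the 150 bases before the RefSeq start, read 5′ to 3′ on the strand of the gene, with matches to GGGCGG on either strand (the GC box) or to GGAATG on either strand (the TEAD motif) in capitals. In Tnfrsf1b a TEAD match overlaps 2 GC boxes by 1 base each, so that they form 1 run.
Tnfrsf1a, chr6:125349573-125349722, plus strand: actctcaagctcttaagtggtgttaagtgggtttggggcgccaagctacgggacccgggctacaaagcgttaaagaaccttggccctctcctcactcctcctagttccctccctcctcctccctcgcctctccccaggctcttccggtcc
Tnfrsf1b, chr4:145246871-145247020, minus strand: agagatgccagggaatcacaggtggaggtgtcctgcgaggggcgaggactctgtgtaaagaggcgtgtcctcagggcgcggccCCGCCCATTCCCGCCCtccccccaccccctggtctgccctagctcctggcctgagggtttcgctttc
Tnfrsf12a, chr17:23677450-23677599, minus strand: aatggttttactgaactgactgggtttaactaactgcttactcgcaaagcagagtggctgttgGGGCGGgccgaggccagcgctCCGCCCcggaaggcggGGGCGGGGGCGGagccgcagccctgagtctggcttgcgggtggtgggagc
Ltbr, chr6:125313886-125314035, minus strand: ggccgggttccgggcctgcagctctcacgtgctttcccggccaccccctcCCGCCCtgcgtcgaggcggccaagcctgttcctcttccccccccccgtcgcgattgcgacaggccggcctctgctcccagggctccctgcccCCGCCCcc
The RefSeq start of Tnfrsf1a used here lies downstream of the GENCODE gene start given above, so this stretch falls inside the GENCODE gene. The Tnfrsf1a stretch held neither match, Ltbr held 2 GC boxes and Tnfrsf12a held 4.

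Promoters of 300 bases, 250 before and 50 from the start on, were matched for 31 of the 39 genes, 11 of them called higher. A GC box was found in 17 of the 31 and in 7 of the 11, where 35.7% of all 32851 promoters hold one. The TEAD motif was found in 6 and in 3 (14.7% of all promoters), and the AP-1 motif TGANTCA, read on both strands, in 6 and in 2 (7.81%). The NF-kappaB motif was matched in 4 promoters, those of Ltb, Tnfrsf9, Tnfrsf8 and Tnfrsf25 (8.46%), of which Ltb and Tnfrsf9 were called higher. A gene was counted if any of its promoters held the motif (35 promoters for the 31 genes), whereas the shares over all promoters count each promoter singly. The 2 units are not alike. These counts describe letters in the windows and carry no test.

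The other receptors with a death domain did not pass the test. Fas, which starts the extrinsic death pathway, was at 9.91, 16.3, 13.9 and 16.5 FPKM in control libraries against 16.7, 12.7, 13.4 and 15.8 FPKM with ANG II. The groups lay over each other, with a log2 fold change of 0.06 (95% interval -0.28 to 0.40) that was -0.15 after median-of-ratios scaling. Its ligand Fasl, from cytotoxic lymphocytes, was at 0.354, 0, 0.103 and 0 FPKM in control libraries against 0.281, 0.161, 1.07 and 0.748 FPKM with ANG II, 8 fragments against 41. The spread within ANG II was wide, and Fasl, called at 0.59 without ANG II replicate 2, missed the call with all libraries (log2 fold change 0.46, limma with Benjamini-Hochberg adjustment, adjusted p = 0.0881). Voom on recovered fragments, on the scale of log2 counts, called it at 2.56 (Benjamini-Hochberg adjusted p = 0.0382).

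Tnfrsf21, or death receptor 6, stood at 6.18, 7.15, 7.38 and 7.40 FPKM in control libraries against 7.56, 5.93, 6.61 and 6.92 FPKM with ANG II, and its log2 fold change was -0.05 (95% interval -0.26 to 0.16). Tnfrsf25, a receptor of lymphocytes for Tnfsf15, was at 5.10, 3.85, 5.73 and 3.13 FPKM in control libraries against 7.60, 4.74, 3.90 and 7.90 FPKM with ANG II (log2 fold change 0.35, 95% interval -0.15 to 0.84). Tnfrsf21 was even across libraries, while the Tnfrsf25 groups overlapped widely. Tnfsf15 was listed at 0 in all control libraries, which allows up to 3 fragments in each, and at 0.0863, 0.0273, 0.0577 and 0.0546 FPKM in ANG II, or 11 fragments in total; its mean was under the filter and it was not tested.

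The receptors for TRAIL, the death-inducing ligand encoded by Tnfsf10, gave mixed values. Tnfsf10 was the most abundant ligand, at 12.8, 6.71, 9.93 and 11.4 FPKM in control libraries against 14.1, 12.1, 11.9 and 10.2 FPKM with ANG II (log2 fold change 0.24, 95% interval -0.14 to 0.62). Its signalling receptor Tnfrsf10b was at 2.62, 1.59, 1.69 and 2.11 FPKM in control libraries against 3.29, 2.24, 2.65 and 3.26 FPKM with ANG II. The Tnfrsf10b groups overlapped, and its log2 fold change of 0.37 did not pass the test (limma with Benjamini-Hochberg adjustment, adjusted p = 0.0778). By voom on recovered fragments it was called, at 0.53 (Benjamini-Hochberg adjusted p = 0.0490).

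Of 4 decoys or receptors without a signalling domain, 2 rose (14% of all genes tested were called higher). Tnfrsf11b encodes osteoprotegerin, a secreted decoy that binds both TRAIL and the RANK ligand, and it went from 0.172, 0.0486, 0.0428 and 0.325 FPKM in control to 1.83, 1.13, 1.10 and 0.533 FPKM in ANG II. Every ANG II library lay above every control library, with 25 fragments in all of control and 200 in all of ANG II. The ratio of means was 7.82, and the log2 fold change, which the pseudocount shrinks at this level, was 0.88 (SE 0.17, limma with Benjamini-Hochberg adjustment, adjusted p = 0.00383). Tnfrsf23, a mouse decoy for TRAIL, stood at 1.28, 0.947, 1.43 and 1.68 FPKM in control libraries against 3.00, 3.72, 3.05 and 3.13 FPKM with ANG II, without overlap (log2 fold change 0.86, SE 0.12, limma with Benjamini-Hochberg adjustment, adjusted p = 0.000593). Its neighbour Tnfrsf22, a further mouse decoy 16.147 kb away on chromosome 7, was at 1.95, 1.34, 1.59 and 1.66 FPKM in control libraries against 2.55, 2.22, 1.77 and 1.88 FPKM with ANG II and was not called (log2 fold change 0.23, 95% interval -0.03 to 0.50). The transcripts of Tnfrsf23 share 18.0% of their 50-base words with Tnfrsf22, and those of Tnfrsf22 share 27.4% with Tnfrsf23, so the split of reads between them is uncertain. Tnfrsf26, next in that cluster, ranged from 0.155 to 0.493 FPKM in control and from 0.285 to 0.834 FPKM in ANG II, with overlap.

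Tnfrsf11a encodes RANK, the receptor that drives osteoclast formation and is also found on macrophages and dendritic cells. It stood at 1.46, 1.32, 1.08 and 1.35 FPKM in control libraries against 2.84, 3.07, 3.33 and 2.53 FPKM with ANG II, again without overlap (log2 fold change 0.77, SE 0.11, limma with Benjamini-Hochberg adjustment, adjusted p = 0.000511). After quantile normalization its log2 fold change was 0.477, under the threshold. The ligand of RANK, Tnfsf11, rested on 1 fragment in control and 25 in ANG II and was at 0.266, 0.0280, 0.325 and 0.112 FPKM in the ANG II libraries; its mean was under the filter.

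Eda2r, the X-linked receptor for ectodysplasin A2, was at 2.76, 3.28, 2.60 and 2.15 FPKM in control libraries against 4.63, 4.37, 3.89 and 4.39 FPKM with ANG II. The groups did not overlap and the log2 fold change was 0.53 (SE 0.11, limma with Benjamini-Hochberg adjustment, adjusted p = 0.00518), but it was 0.459 without control replicate 4. After quantile normalization it was 0.21 and did not pass the test (limma with Benjamini-Hochberg adjustment, adjusted p = 0.164). Tnfrsf14, the herpesvirus entry mediator, was at 5.59, 4.67, 4.42 and 5.70 FPKM in control libraries against 8.41, 4.75, 6.76 and 7.43 FPKM with ANG II. Here ANG II replicate 2 lay among the control libraries and the gene was not called (log2 fold change 0.35, limma with Benjamini-Hochberg adjustment, adjusted p = 0.108). Tnfsf14, a ligand that Tnfrsf14 shares with Ltbr, was at 0.0708 to 0.131 FPKM in control libraries against 0.136 to 0.750 FPKM with ANG II, without overlap but on 11 and 44 fragments (log2 fold change 0.32, limma with Benjamini-Hochberg adjustment, adjusted p = 0.0837). Voom called Tnfsf14 at 1.596 (Benjamini-Hochberg adjusted p = 0.0475). Its control mean of 0.0969 FPKM was under the filter, which it passed only through ANG II, so its p-values rest on that selection.

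Tnfrsf19, also called TROY, an orphan-like receptor known from progenitor cells and nervous tissue, was the single family gene called lower. Its values were 1.90, 1.73, 1.17 and 1.00 FPKM in control libraries against 0.566, 0.623, 0.418 and 0.904 FPKM with ANG II, so that the highest ANG II library lay just under the lowest control library. The log2 fold change was -0.58 (SE 0.15, limma with Benjamini-Hochberg adjustment, adjusted p = 0.0139) and the ratio of means was 0.432. It was -0.69 after median-of-ratios scaling, and -0.496, no longer past the fold change threshold, without control replicate 1. Ventricular cardiomyocyte markers also stood lower in ANG II, 2 of 7 called lower (1.41% of all genes tested) and 4 of 7 after median-of-ratios scaling (4.16%), and their part in the Tnfrsf19 values was not tested.

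The receptors of B cells and their ligands moved unevenly. Tnfrsf13b encodes TACI, which binds both BAFF and APRIL on B cells, and it went from 1.20, 0.317, 0.978 and 0.605 FPKM in control to 3.21, 3.48, 4.13 and 2.54 FPKM in ANG II. The lowest ANG II library was above the highest control library. On FPKM + 1 as deposited, the log2 fold change of 1.30 was second to that of Tnfrsf1b (SE 0.18, limma with Benjamini-Hochberg adjustment, adjusted p = 0.000481). After median-of-ratios scaling the order turned, at 1.17 for Tnfrsf13b against 1.15 for Tnfrsf1b. Of the 6 B cell markers 0 were called higher by limma (14% of all genes tested) and 0 by voom (18.9%), and 0 were called lower by either (1.41% and 2.01%). At an unadjusted p under 0.05 limma gave 1 higher (35.9% of all genes tested). Their sum was 3.62 to 6.42 FPKM in control libraries against 5.62 to 7.26 FPKM with ANG II. Tnfrsf13c, the BAFF receptor of mature B cells, was between 0 and 0.111 FPKM in control and between 0 and 0.316 FPKM in ANG II and was not called, and Tnfrsf17, the receptor of plasma cells, rested on 3 fragments in each group.

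Tnfsf13b, which encodes BAFF, was even in control at 0.683, 0.609, 0.656 and 0.646 FPKM and stood at 1.27, 1.46, 1.27 and 1.76 FPKM in ANG II. The groups were well apart and the ratio of means was 2.22 (log2 fold change 0.56, SE 0.10, limma with Benjamini-Hochberg adjustment, adjusted p = 0.00223). Tnfsf13, which encodes APRIL, ranged from 0.135 to 0.380 FPKM in control and from 0.181 to 0.560 FPKM in ANG II. It was not called, and the read-through gene Tnfsfm13 contains 57.3% of its 50-base words. The antisense RNA Tnfsf13os overlaps Tnfsf13 on the opposite strand and was at 0.400 to 1.27 FPKM in control libraries against 0.480 to 1.11 FPKM with ANG II; the use of strand in counting is not given in the sources used here, so reads of the pair cannot be told apart.

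Genes of lymphocyte costimulation were low throughout. Tnfrsf9, an inducible receptor of activated T cells, stood at 0.170, 0.112, 0.642 and 0.0535 FPKM in control libraries against 0.756, 1.54, 1.57 and 0.512 FPKM with ANG II. Control replicate 3 exceeded ANG II replicate 4, so the groups overlapped, and the log2 fold change was 0.74 (SE 0.21, limma with Benjamini-Hochberg adjustment, adjusted p = 0.0205). Leaving out control replicate 1, 2 or 4 or ANG II replicate 2 or 3 each ended the call, with log2 fold changes of 0.63 to 0.71. Tnfrsf18, a receptor rich on regulatory T cells, was at 2.47, 1.03, 1.67 and 0.8294 FPKM in control libraries against 2.05, 1.59, 1.53 and 1.52 FPKM with ANG II. Its control spread covered all ANG II values (log2 fold change 0.14, 95% interval -0.29 to 0.57), and 27.2% of its exon bases lie under a gene of the opposite strand. Tnfrsf4 was at 0.140 to 1.05 FPKM in control libraries against 0.0729 to 1.02 FPKM with ANG II, and Tnfrsf8 rested on 4 and 7 fragments.

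The ligand Tnfsf8, which binds Tnfrsf8 on activated lymphocytes, was at 0.0545, 0, 0.0317 and 0.0172 FPKM in control libraries against 0.277, 0.264, 0.278 and 0.181 FPKM with ANG II. The groups were clearly apart, with 6 fragments in control and 59 in ANG II. It passed the adjusted p (0.0173, limma with Benjamini-Hochberg adjustment) but not the fold change threshold, at 0.28 on the scale of FPKM + 1. Its control mean of 0.0258 FPKM was under the filter, which it passed only through ANG II, so its p-values and calls rest on that selection. With a pseudocount of 0.1 in place of 1 its log2 fold change was 1.48 and it was called, as was Tnfsf18, a ligand for Tnfrsf18, at 1.33, and voom called both, at 3.19 and 2.35. Tnfsf18 rested on 7 fragments in control and 38 in ANG II, with levels of 0 to 0.117 FPKM and 0.160 to 0.516 FPKM. It too passed the filter only through ANG II, at a control mean of 0.0534 FPKM. Tnfsf9 overlapped between the groups, at 0.0468 to 0.322 FPKM and 0.0513 to 0.460 FPKM, and Tnfsf4 was listed at 0 in control and rested on 3 fragments in ANG II.

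**Figure D3:**
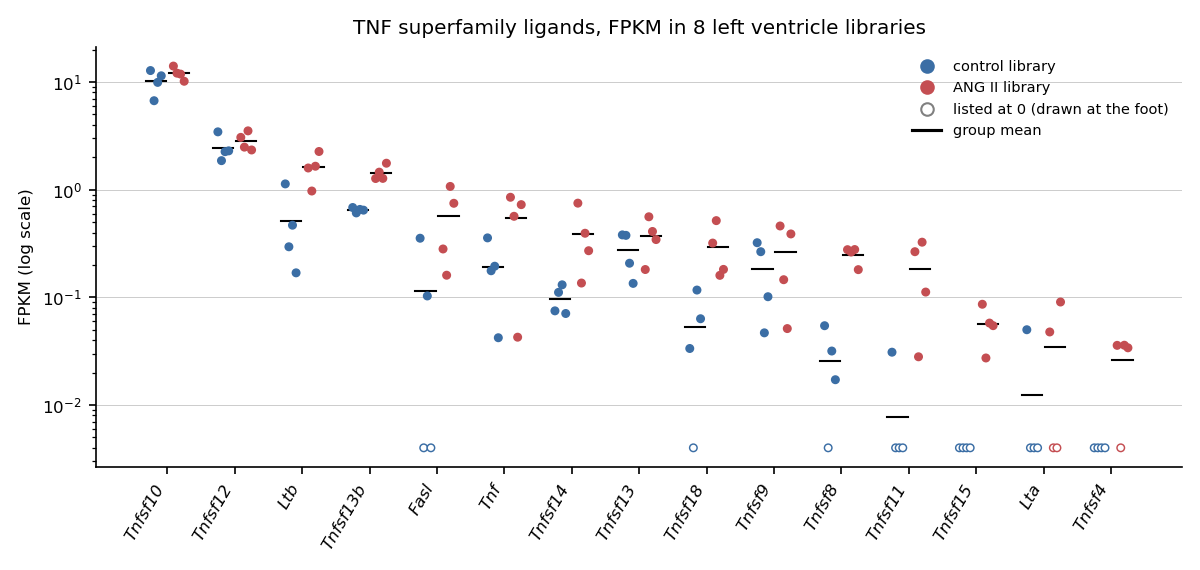
FPKM (y axis, log scale) of the 15 ligand genes in each of the 8 libraries, control in blue and ANG II in red, with group means as black bars and values listed at 0 as open circles at the foot. Tnfsf10 and Tnfsf12 stand highest and overlap between the groups, whereas Tnfsf13b and Tnfsf8 do not overlap, at means of 0.648 and 0.0258 FPKM in control libraries against 1.44 and 0.250 FPKM with ANG II.

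The second comparison set each ligand against its receptor within a library. Such a ratio depends little on the scaling of libraries where both genes lie well above the pseudocount, and it moves with the pseudocount where either gene lies near it, as Tnf, Tnfsf13, Tnfsf8, Tnfrsf8 and Tnfrsf11b in control do. For 20 known pairs, log2 of (ligand FPKM + 0.1) over (receptor FPKM + 0.1) was taken, with no test. Levels of RNA are not levels of protein at the surface. Ligand RNA was far below receptor RNA for TNF and its first receptor, at -7.43 ± 0.67 in control libraries against -7.41 ± 1.27 with ANG II (SD, n = 4), and this ratio overlapped between the groups. In the ANG II libraries it was -6.63, -7.00, -9.29 and -6.70, so replicate 3 lowered the mean. With a pseudocount of 1 the ratio was -5.32 ± 0.14 in control libraries against -5.89 ± 0.37 with ANG II (SD, n = 4), lower without overlap, so its direction depended on the pseudocount. The pair of Tnfsf12 and Tnfrsf12a was at -4.99 ± 0.36 in control libraries against -5.72 ± 0.41 with ANG II (SD, n = 4), with a small overlap.

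The groups did not overlap for 4 of the 20 pairs, and no share over all genes exists to read this against. TRAIL RNA stood above that of its decoys, and for Tnfrsf11b and Tnfrsf23 less so in ANG II. The ratio of Tnfsf10 to Tnfrsf11b was 5.50 ± 0.56 in control libraries against 3.38 ± 0.47 with ANG II (SD, n = 4), a difference of -2.12 that was -0.64 with a pseudocount of 1, since Tnfrsf11b in control lies about the pseudocount. That of Tnfsf10 to Tnfrsf23 was 2.83 ± 0.26 in control libraries against 1.87 ± 0.25 with ANG II (SD, n = 4), a difference of -0.97 that was -0.62 with a pseudocount of 1. The ratio of Tnfsf10 to its signalling receptor Tnfrsf10b, was 2.28 ± 0.21 in control libraries against 2.05 ± 0.32 with ANG II (SD, n = 4), with overlap. Tnfsf13 against Tnfrsf13b went from -1.16 ± 0.91 to -2.91 ± 0.51 (SD, n = 4 each), a difference of -1.74 that was -1.20 with a pseudocount of 1. This pair covers APRIL only, which rested on 24 fragments in control and 34 in ANG II. BAFF, which TACI also binds, was not set against Tnfrsf13b. The BAFF gene Tnfsf13b stood higher than Tnfsf13, at means of 0.648 and 1.44 FPKM in control and ANG II against 0.275 and 0.374 FPKM. The pair of Tnfsf8 and Tnfrsf8 was higher in ANG II without overlap, at 0.10 ± 0.28 in control libraries against 1.40 ± 0.23 with ANG II (SD, n = 4), a difference of 1.31 that was 0.27 with a pseudocount of 1. Both of these genes lie near the pseudocount, and Tnfrsf8 rests on 4 and 7 fragments. With a pseudocount of 1 there were 9 pairs without overlap, 2 higher and 7 lower in ANG II.

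**Figure D4:**
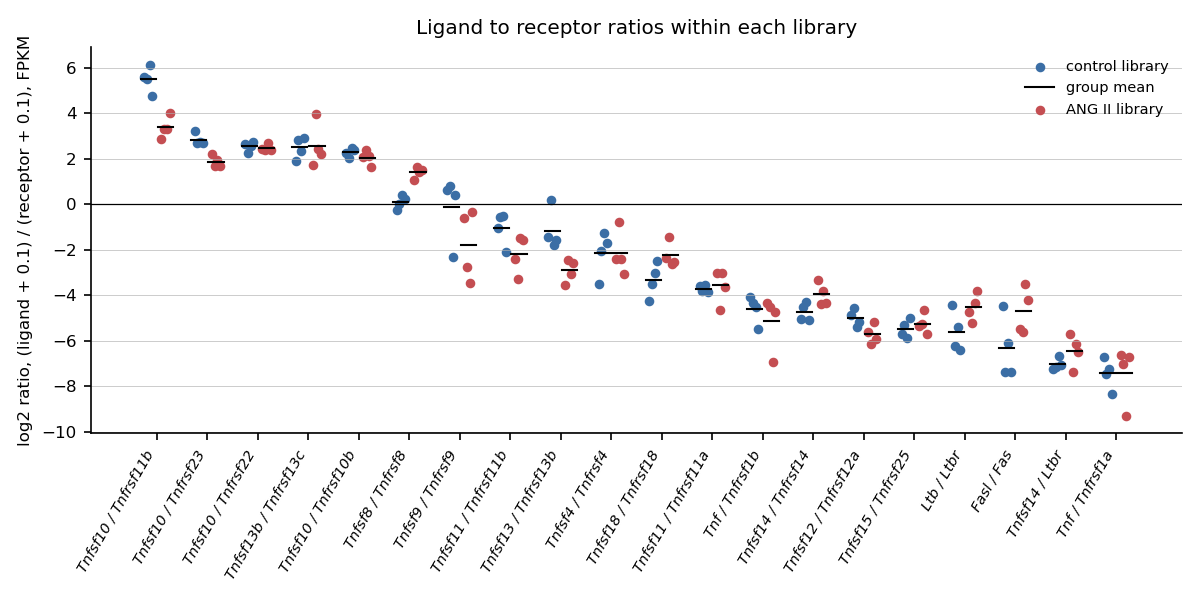
Log2 ratio of ligand to receptor FPKM (y axis, pseudocount 0.1) within each of the 8 libraries for 20 known pairs, ordered from high to low in control, with control in blue, ANG II in red and group means as black bars. The ratio of Tnfsf10 to Tnfrsf11b falls from a mean of 5.50 to 3.38, and that of Tnf to Tnfrsf1a spreads from -9.29 to -6.63 with ANG II, around the control values.

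The third comparison followed the signal inward, to 72 genes of the pathway. Of 70 tested, 29 were called higher and 0 lower by limma, where 14% and 1.41% of all genes tested were, the median being 0.43 on the log2 scale. After median-of-ratios scaling 16 were called higher and 2, Map3k5 and Sod2, lower (8.63% and 4.16% of all genes). At an unadjusted p under 0.05 limma gave 49 higher and 2 lower (35.9% and 7.09% of all genes), and voom called 33 higher and 0 lower (18.9% and 2.01%). Against the same shares, in the cell death branch 6 of 9 were called higher, and 3 higher and 1 lower after median-of-ratios scaling, with Bid, Mlkl and Bax losing the call. The necroptosis kinase gene Ripk3 rose from 3.25 ± 0.190 to 7.65 ± 0.807 FPKM and the initiator caspase gene Casp8 from 6.29 ± 0.872 to 12.04 ± 2.55 FPKM (SD, n = 4 each), at log2 fold changes of 1.02 and 0.83. These are levels of RNA, and Casp8 acts as a protein only once activated at a receptor complex. Map3k5, a stress kinase gene of the same list, was at 32.5 ± 1.35 FPKM in control libraries against 25.6 ± 2.15 FPKM with ANG II (log2 fold change -0.34).

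Of 14 receptor adaptors and TRAFs, 5 were called higher (14% of all genes tested), led by Traf1 (0.96), the kinase gene Ripk1 (0.71) and Birc3 (0.62), an inhibitor of apoptosis, as log2 fold changes. After median-of-ratios scaling 2 of the 14, Traf1 and Ripk1, were called higher (8.63%). The adaptor gene Fadd was not called, at 2.00 ± 0.305 FPKM in control libraries against 2.42 ± 0.255 FPKM with ANG II (SD, n = 4). Fadd was chosen for mention after its values were seen. In the NF-kappaB branch 8 of 13 genes passed the adjusted p (33.3% of all genes tested) but 1 passed both thresholds (15.4% of all genes tested), Map3k14, which encodes the kinase of the non-canonical branch (log2 fold change 0.73), with a list median of 0.26.

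Among 9 feedback inhibitors 4 were called higher (14% of all genes tested) and 3 after median-of-ratios scaling (8.63%), where Tnfaip3 lost the call, with Tnfaip8l2 at 1.16, Nfkbie at 0.85 and the deubiquitinase gene Otulin at 0.83 on the log2 fold change scale. Of 14 genes known as NF-kappaB targets, 8 were called higher (14% of all genes tested) at a list median of 0.96, and 6 higher and 1 lower after median-of-ratios scaling (8.63% and 4.16%). The leading 3 were the chemokine gene Cxcl10, from 1.49 ± 1.16 to 5.32 ± 1.69 FPKM, Il1b, from 2.48 ± 1.55 to 9.06 ± 7.12 FPKM, and Ccl5, from 2.55 ± 2.05 to 6.87 ± 1.497 FPKM (SD, n = 4 each), of which Il1b and Ccl5 overlapped between the groups and Il1b was not called after median-of-ratios scaling. Neutrophil markers moved with them, 4 of 5 called higher (14%), from a sum of 2.60 to 6.77 FPKM in control to 8.66 to 21.8 FPKM in ANG II, and the part of leukocytes in these values was not tested.

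Membrane-bound TNF ligands and receptors are released by proteases. Of 5 shedding genes, 3 were called higher (14% of all genes tested), namely the protease gene Adam10 (0.69), its inhibitor gene Timp3 (0.64) and the pseudoprotease gene Rhbdf1 (0.53). After median-of-ratios scaling 0 of 5 were called higher by limma (8.63% of all genes). With that scaling 3 were higher at an unadjusted p under 0.05, as were 3830 of all 19364 genes tested. By voom 3 were called higher (18.9%). Of 8 other family genes whose names fall outside the rule, 6 were tested and 2 called higher (14% of all genes tested), of which Relt lost the call after median-of-ratios scaling (8.63%). Cd40, the costimulatory receptor of antigen-presenting cells, was at 2.24 ± 0.662 FPKM in control libraries against 4.26 ± 0.976 FPKM with ANG II, and Relt at 2.47 ± 0.566 and 4.43 ± 0.548 FPKM (SD, n = 4 each). Eda, whose longer-known receptor is Edar and 1 of whose products binds Eda2r, was not called (log2 fold change 0.25).

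**Figure D5:**
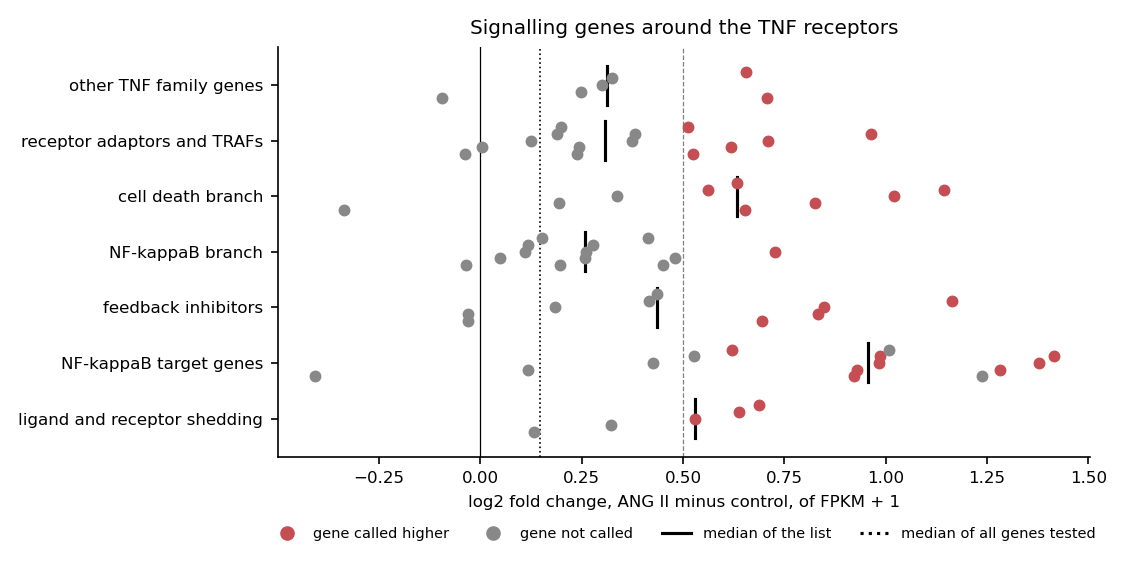
Log2 fold change of FPKM + 1 (x axis, ANG II minus control) of the 70 pathway genes tested, 1 point per gene, by list (y axis), with called genes in red, list medians as black bars, the median of all genes as a dotted line and the fold change threshold of 0.5 as a dashed line. The list of NF-kappaB target genes has the highest median, 0.96, and that of the NF-kappaB branch itself the lowest, 0.26.

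Markers of several cell types differed between the groups, read against 14% of all genes called higher, 8.63% after median-of-ratios scaling and 18.9% by voom. All 8 fibroblast markers were called higher, with a sum of 432 to 620 FPKM in control libraries against 2386 to 2808 FPKM with ANG II. The largest rises in that sum were in the matrix genes Postn, Col1a1 and Col1a2, from means of 33.2, 64.7 and 67.2 FPKM to 667, 608 and 588 FPKM. Pdgfra, Tcf21 and Dcn went from 19.3, 4.46 and 293 FPKM to 31.4, 7.89 and 489 FPKM. These genes were named after their values were seen. Also called higher were 4 of 11 T cell markers and all 5 erythroid markers. The erythroid sum was 96.8 to 487 FPKM in control libraries against 581 to 2083 FPKM with ANG II. Of 4 atrial markers 2 were called higher, and 1 after median-of-ratios scaling. Their sum was 7.72 to 58.5 FPKM in control libraries against 195 to 339 FPKM with ANG II. The 1 that kept the call was Nppa, from 8.61 ± 1.86 to 141 ± 22.9 FPKM (SD, n = 4 each), named after its values were seen. The study lists atrial natriuretic peptide, which Nppa encodes, among genes that cardiomyocytes activate in LVH, so Nppa does not mark atrial cells alone. Myl7 and Myl4 were not called, though their groups did not overlap. Of 5 NK cell markers tested 0 were called by limma or voom. At an unadjusted p under 0.05 limma gave 0 of them higher and 0 lower (35.9% and 7.09% of all genes). Of 6 endothelial markers 2 were called higher, 0 by limma after median-of-ratios scaling and 2 by voom. With that scaling 2 were higher at an unadjusted p under 0.05, as were 3830 of all 19364 genes tested. The part of these cell types in the receptor values, Tnfrsf12a, Tnfrsf1a and Tnfrsf11b included, was not tested.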

How the data were processed

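The authors deposited 1 table of FPKM values 1 column for each library, none of them pooled; the submitters' processing notes name Bowtie2, HISAT and RSEM, without versions. Genome build, annotation and use of strand are not given in the sources used here. FPKM values were used as deposited, on log2(FPKM + 1), which understates changes of low genes.

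Genes averaging 0.1 FPKM or more (19364 of 55679) were fitted with limma 3.58.1 (lmFit, eBayes with trend) in R 4.3.3 over all 8 libraries without covariates, with Benjamini-Hochberg adjustment and two-sided tests, and called at an adjusted p under 0.05 and an absolute log2 fold change above 0.5. Both thresholds and limma are those of the study; pseudocount, filter and base 2 were chosen here. The code was tested on simulated data.

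Fragments were recovered from the steps of the values with mean transcript lengths of GENCODE M21 (GRCm38): 97.8% of 181 family values under 60 fragments were whole within 0.05. Limits of 3 fragments cover counting error only. Positions are from GENCODE M21, promoters from RefSeq (GRCm38.p6).

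Family genes that were called, or reached a group mean of 1 FPKM, are described singly, and up to 3 called genes per pathway list; 1 gene that this picks is not reported here singly and stays in the counts. Family and lists were chosen with earlier results of these data known. Alternatives covered pseudocount, filter, scaling, variance trend, thresholds, a replicate block and each library left out. A further one, voom on recovered fragments, was chosen after seeing the data. The study describes 16 samples per group; 4 per group were analysed here. Other steps ran in Python 3.11.15 with pandas 2.3.3, numpy 2.4.6, matplotlib 3.10.9 and scipy 1.17.1.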

Additional observations from a re-analysis of the deposited data

Results flagged for a closer look

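In 3 of 66 sets of 4 libraries (each of the 33 genes in each group), 1 library stood apart by a gap over range above Dixon's 95% critical value, and chance gives about 1 in 20. Tnfrsf18 was at 2.05 FPKM in ANG II replicate 1, with the others at 1.52 to 1.59 FPKM (gap over range 0.860). Tnfsf13os was at 1.27 FPKM in control replicate 1, with the others at 0.400 to 0.462 FPKM (0.929). Tnfsf8 was at 0.181 FPKM in ANG II replicate 4, with the others at 0.264 to 0.278 FPKM (0.851), still above all control values.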

How the results depend on the processing

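With all settings as reported, 12 family genes were called higher, 1 lower, 2 ligands, 11 receptors, 29 pathway genes and 2981 genes in all. An absolute log2 fold change above 1 left 2 higher, 0 lower, 0 ligands, 2 receptors, 6 pathway genes and 795 in all (limma; 13 family genes had passed at 0.5), and the adjusted p alone gave 6447 genes and 44 pathway genes. Quantile normalization gave 7 higher, 1 ligand, 7 receptors and 16 pathway genes, where 1413 of all 19364 genes were higher and 986 lower. Median-of-ratios scaling gave 1 ligand and 18 pathway genes (2477 of all 19364 genes called). Removal of mitochondrially encoded genes and the 10 most abundant genes gave 1 ligand (2501 of 19344). A pseudocount of 0.1 gave 4 ligands (3816 of 19364) and voom on recovered fragments 6 (3996 of 19076). Ratios without overlap numbered 4, and 9 with a pseudocount of 1. With each library left out in turn, 9 to 12 genes were higher, 0 to 1 lower (0 without control replicate 1), 2 to 3 ligands, 8 to 11 receptors, 25 to 30 pathway genes and 2722 to 3078 genes in all were called. Directions turned for uncalled genes only: Fas to -0.15 (median of ratios), -0.18 (quantile), -0.0776 (without mitochondrial and abundant genes) and -0.0880 (without control replicate 1, the range over libraries left out reaching 0.139), Tnfsf12 to -0.0029 (median of ratios) and -0.15 (quantile), under quantile normalization Tnfrsf18 to -0.12, Tnfrsf22 to -0.0480, Tnfsf10 to -0.0088 and Tnfsf9 to -0.0075, and Tnfrsf21 to 0.00164 without ANG II replicate 2 (down to -0.104 without control replicate 1). The cause of these changes was not tested. Replicate numbers did not pair the libraries (correlations of same-numbered deviations from -0.03 to 0.06), and a replicate block gave 2968 genes, 12 family genes higher and 1 lower, with no family call changed. By depth, 6 family genes, 4 ligands and 2 receptors, were under the filter, and Tnf rested on 18 fragments in control and 53 in ANG II.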
